A study of Mus musculus with 2 samples.

Results

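Genes that are commonly read as signs of alternative activation or of scavenging in macrophages were followed through the monocytes, macrophages and dendritic cells of mouse tumours. They are Mrc1, Cd163, Folr2, Stab1, Retnla, Clec10a, Chil3, Msr1, Ccl24 and Tgfb1. The 10 were chosen by symbol, and all of them are among the 32285 genes measured. The study sorted CD45+ leukocytes from tumours of C57BL/6 mice and made 1 droplet-based single-cell RNA library from WT tumours and 1 from Ythdf2 KO tumours. The sample labels attach the knockout to the tumours and the design text attaches a conditional knockout to the mice, so which cells lack Ythdf2, a protein that binds m6A-marked RNA, is left unsettled; the series title speaks of a role within the tumour. The labels name no tumour line, no age and no Cre driver, and they do not say whether animals were pooled. With 1 library per genotype there is no replicate check: every difference below is a difference between 2 libraries, no test was made, and the 95% intervals cover counting error only.

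Alternatively activated macrophages are the state that the cytokines IL-4 and IL-13 induce through the transcription factor STAT6, and tissue-resident macrophages carry several of the same genes without that signal. Mrc1 (the mannose receptor CD206), Cd163 (the haemoglobin-haptoglobin receptor), Stab1 (stabilin-1, a clearance receptor) and Msr1 (scavenger receptor A) bring glycoproteins, damaged proteins and modified lipoproteins into the cell. Folr2 encodes folate receptor beta, and Clec10a encodes a galactose-type lectin. Retnla (the secreted protein Fizz1), Chil3 (the chitinase-like protein Ym1), Ccl24 (an eosinophil-attracting chemokine) and Tgfb1 (the cytokine TGF-beta 1) are secreted products.

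After removal of barcodes with over 10% mitochondrial UMIs or under 200 genes, 20415 of the 20886 barcodes of the WT library remained, and 15844 of the 16312 of the other. The deposited totals were 168912853 and 134066610 UMIs (unique molecular identifiers, each standing for 1 captured RNA molecule). The libraries share 101 barcode sequences, of which 12 fall in monocyte, macrophage or dendritic cell types in both. Levels are given as CPM, the gene's UMIs per 1000000 UMIs of the cells concerned, and pairs of values stand in the order WT, Ythdf2 KO. Ythdf2 itself stood at 48.4 and 46.1 CPM over all kept barcodes, a Ythdf2 KO to WT ratio of 0.952 (0.920 to 0.984), and at 57.5 and 61.7 CPM in C1q macrophages. Whether the reads fall outside a deleted part of Ythdf2 is not known, so these values do not check the labels.

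Cell types were set by UMIs of marker genes that are not among the 10. C1q macrophages (1530 WT and 1052 Ythdf2 KO cells) held at least 10 UMIs of C1qa, C1qb and C1qc together. C1q Ly6c2 cells (2088 and 1335) held as many and also at least 5 UMIs of the monocyte genes Ly6c2 and Vcan. Classical monocytes were divided into early ones with Mgst1 (779 and 693) and others (2981 and 2135). Patrolling monocytes (231 and 657), cDC1 (30 and 28), cDC2 (88 and 29), mature DC (473 and 234) and plasmacytoid DC or pDC (86 and 136) completed the 9 types, with T, NK and B cells and neutrophils as the background of free RNA. The types held 8286 WT and 6299 Ythdf2 KO cells. Barcodes that also carried genes of another lineage were left out, among them 2578 and 1946 that met the C1q limit but also a lymphocyte or neutrophil limit. The median C1q macrophage held 3934 UMIs in WT and 4868 in Ythdf2 KO.

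**Figure D1:**
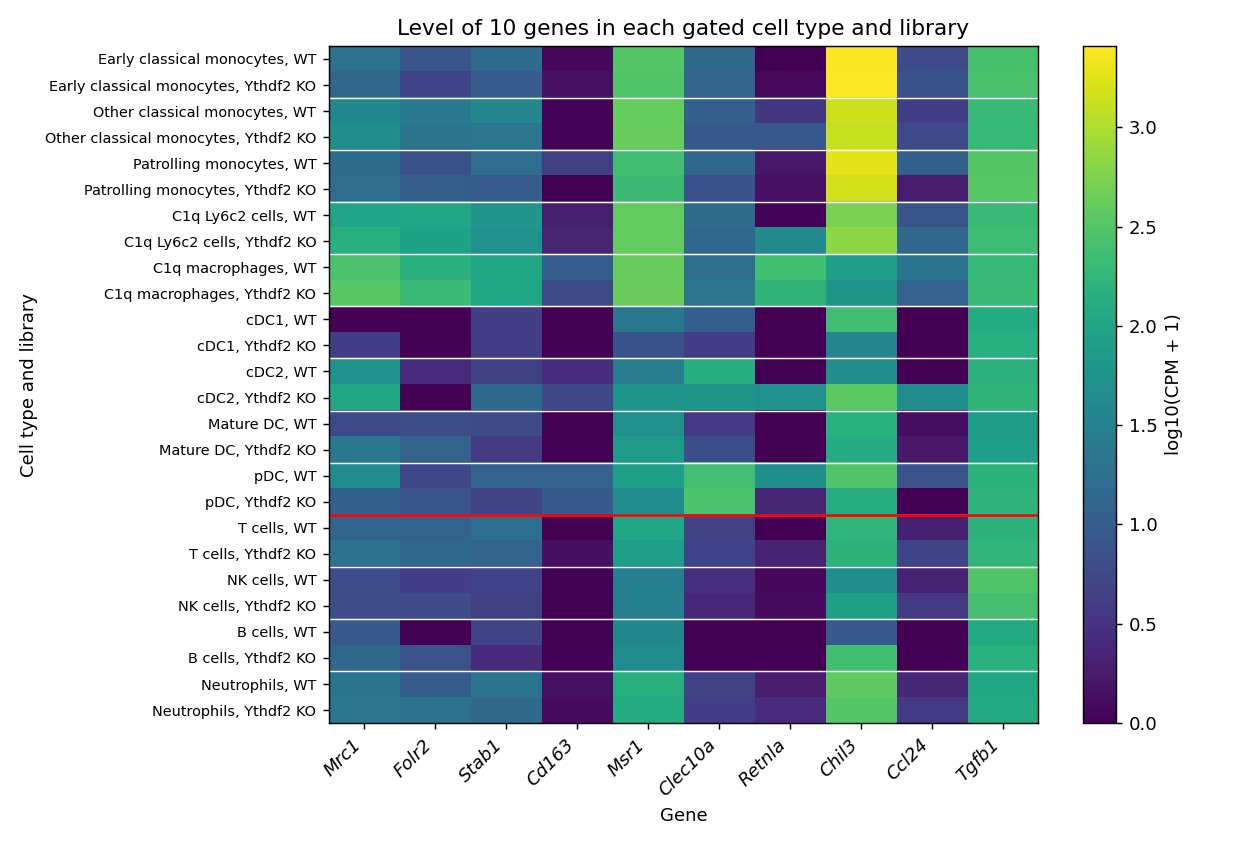
Level of the 10 genes (columns) in each gated cell type and library (rows), coloured by log10(CPM + 1) on a log scale; rows under the red line are lymphocytes and neutrophils. Mrc1, Folr2 and Stab1 are highest in the 2 C1q types, Chil3 in monocytes, and Clec10a in pDC and cDC2.

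Mrc1 was highest in C1q macrophages, at 277 CPM (95% Poisson interval 264 to 289) in WT and 342 CPM (327 to 357) in Ythdf2 KO cells. C1q Ly6c2 cells came next at 96.2 and 138 CPM. cDC2 followed at 53.2 CPM (36.2 to 75.6) and 99.9 CPM (62.6 to 151), from 31 and 22 UMIs, with an interval that overlaps C1q Ly6c2 cells in the Ythdf2 KO library. WT pDC had 44.9 CPM from 21 UMIs, 11 of them in 1 cell, and Ythdf2 KO pDC 10.6 CPM. Other classical monocytes stood at 36.3 and 49.6 CPM. In T cells, which should lack the gene, the level was 11.6 and 18.6 CPM, and in NK cells it was 5.47 and 5.44 CPM. Early classical monocytes (17.6 and 12.4 CPM) and patrolling monocytes (14.8 and 15.5 CPM) were within the range of these lymphocytes and of neutrophils (20.2 and 21.4 CPM). Mrc1 was thus 7.62 times as high in C1q macrophages as in other classical monocytes of the WT library, and 6.89 times in the Ythdf2 KO library. Mrc1 lies at chr2:14229392-14332057 on the plus strand of GRCm38.

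Folr2 and Stab1 were also highest in C1q macrophages, followed by C1q Ly6c2 cells and then other classical monocytes. Folr2 stood at 145 and 213 CPM in C1q macrophages, 98.6 and 95.3 CPM in C1q Ly6c2 cells and 23.1 and 20.2 CPM in other classical monocytes, against 11.3 and 13.2 CPM in T cells. Stab1 stood at 109 and 104 CPM in C1q macrophages, 59.2 and 51.8 CPM in C1q Ly6c2 cells and 36.5 and 20.5 CPM in other classical monocytes, against 16.1 and 11.2 CPM in T cells. Neutrophils had 8.79 and 18.1 CPM of Folr2 and 19.3 and 14.2 CPM of Stab1. In the Ythdf2 KO library their intervals overlap those of other classical monocytes for both genes. In neither library did cDC1, cDC2, mature DC or pDC hold more than 16 UMIs of Folr2 or 15 UMIs of Stab1. Folr2 lies at chr7:101839988-101857194 and Stab1 at chr14:31139013-31168641, both on the minus strand.

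Msr1 did not divide monocytes from macrophages. Its level was 413 and 420 CPM in C1q macrophages, 394 and 384 CPM in C1q Ly6c2 cells, 404 and 415 CPM in other classical monocytes and 327 and 303 CPM in early ones. The ratio of C1q macrophages to other classical monocytes was 1.02 (0.976 to 1.07) in the WT library and 1.01 (0.965 to 1.07) in the other. Patrolling monocytes stood lower, at 234 and 215 CPM, and T cells at 104 and 78.1 CPM. The gene lies at chr8:39581685-39642673 on the minus strand.

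Tgfb1 was spread over leukocytes. It was highest in patrolling monocytes, at 326 and 335 CPM. NK cells (301 and 253 CPM) came second in the WT library and early classical monocytes (263 and 267 CPM) second in the other, where the intervals of these types overlap. The level was lower in C1q macrophages at 192 and 212 CPM. Mature DC had 76.2 and 80.5 CPM. C1q macrophages and other classical monocytes differed by under 1.5-fold in both libraries (ratios of 0.963 and 1.11). Tgfb1 lies at chr7:25687002-25705077 on the plus strand.

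Clec10a was highest in pDC and cDC2. pDC stood at 242 CPM (199 to 291) and 277 CPM (241 to 318), with a UMI in 46 of 86 and 85 of 136 cells. cDC2 followed at 134 CPM (106 to 167) and 63.6 CPM (34.8 to 107), from 78 and 14 UMIs. C1q macrophages came after them at 15.7 and 20.8 CPM, against 3.77 and 3.79 CPM in T cells. The other dendritic cells were lower, cDC1 at 9.44 and 3.16 CPM (3 and 1 UMIs) and mature DC at 2.73 and 5.55 CPM. Clec10a lies at chr11:70156197-70170834, beside its relative Mgl2. Mgl2 had 40.6 and 38.5 CPM in pDC and 41.2 and 95.4 CPM in cDC2, from 24 and 21 UMIs in cDC2. The 2 genes resemble each other, and how reads that fit both were counted is not given in the sources used here.

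Cd163 was scarce. All kept barcodes together held 147 WT and 87 Ythdf2 KO UMIs, and C1q macrophages held 64 UMIs in 15 of 1530 cells and 28 UMIs in 9 of 1052 cells. NK cells held 0 UMIs in 1569 and 870 cells, which allows levels of up to 0.182 and 0.380 CPM (3 counts). pDC had 5 of 86 and 5 of 136 cells with a UMI (10.7 and 7.97 CPM), with intervals that overlap those of C1q macrophages (9.31 and 4.84 CPM). Cd163 lies at chr6:124304656-124330527 on the plus strand.

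Against other classical monocytes, 7 of 10 genes in WT and 6 of 9 in Ythdf2 KO were at least 1.5-fold higher in C1q macrophages and 1 was lower, Chil3, where 36.5% and 31.0% of all genes were higher and 8.32% and 10.0% lower. Against C1q Ly6c2 cells, 5 of 10 and 5 of 9 were higher and 1 lower, Chil3. Of all genes, 10.3% and 11.7% were higher and 3.87% and 6.21% lower against these cells. The 5 were not the same genes. Mrc1, Stab1 and Retnla were higher in both libraries, Ccl24 in WT only, and Folr2 and Clec10a in Ythdf2 KO only. Cd163 was higher in WT and had no ratio in Ythdf2 KO. There its 28 UMIs in C1q macrophages and 14 in C1q Ly6c2 cells were too few, though the level was higher in C1q macrophages. Ccl24 had ratios of 2.96 and 0.805. Cd163, Retnla and Ccl24 were held by few cells.

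Chil3 went the other way from Mrc1. Early classical monocytes had 2442 and 2565 CPM, patrolling monocytes 1839 and 1543 CPM, and other classical monocytes 1397 and 1296 CPM. The level was 534 and 685 CPM in C1q Ly6c2 cells and 79.3 and 62.6 CPM in C1q macrophages. The latter was below T cells of the same libraries (175 and 161 CPM), so the Chil3 UMIs of C1q macrophages were at the level of the background. C1q macrophages had 0.0567 and 0.0483 times the level of other classical monocytes. Chil4, the closest relative of Chil3, had 1 UMI in each library. Another relative, Chil1, was found mainly in neutrophils at 175 and 108 CPM. Chil3 lies at chr3:106147554-106167564 on the minus strand.

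Retnla and Ccl24, like Cd163, were held by few cells. The 9 of 1530 C1q macrophages with a Retnla UMI in the WT library held 1630 UMIs, 854 of them in 1 cell, and the 13 of 1052 in the Ythdf2 KO library held 990 UMIs, 401 of them in 1 cell. For Ccl24 the cells with a UMI were 34 and 32, with 136 and 62 UMIs. The 1% of C1q macrophages richest in each gene (16 and 11 cells) held 85.3% and 66.1% of the Ccl24 UMIs, against 23.8% and 16.2% for Mrc1, 13.5% and 11% for Folr2, and 6.94% and 7.36% for Msr1. The same cells by rank held 39.8% and 37.5% of the Clec10a UMIs and 33.9% and 42.3% of the Chil3 UMIs. Counting intervals treat UMIs as independent, which UMIs of 1 cell are not. They are therefore too narrow for Retnla, Cd163 and Ccl24, and can be too narrow for the other genes as well. Retnla lies at chr16:48842551-48844461 on the plus strand and Ccl24 at chr5:135569937-135573049 on the minus strand. The relative Retnlg, which was among the genes that set neutrophils, had 8211 and 3580 CPM there, and Retnla had 0.879 and 1.67 CPM in the same cells.

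The promoters of Retnla and Chil3 are shown because the 2 genes are textbook products of the same IL-4 response and yet were found in different cells here. RefSeq promoters (GRCm38.p6) were at hand for 7 of the 10 genes: Mrc1, Cd163, Folr2 (with 2 starts), Stab1, Retnla, Chil3 and Tgfb1. The 250 bases before each start were searched on both strands for TTCNNNNGAA, the spacing that STAT6 favours, for TTCNNNGAA, the spacing of other STAT factors, and for GAGGAA, a core of the myeloid factor PU.1. A match of one STAT spacing cannot match the other from the same first base, and GAGGAA can overlap either. Among all 32851 promoters, 5.85% held TTCNNNNGAA, 7.02% held TTCNNNGAA and 23.3% held GAGGAA. Capitals mark the match to TTCNNNNGAA in Retnla and to TTCNNNGAA in Chil3. The Retnla stretch (chr16:48842359-48842550, plus strand) ends before the first annotated transcript, and the Chil3 stretch (chr3:106167565-106167814, minus strand) is read 5′ to 3′ along the gene.
Retnla: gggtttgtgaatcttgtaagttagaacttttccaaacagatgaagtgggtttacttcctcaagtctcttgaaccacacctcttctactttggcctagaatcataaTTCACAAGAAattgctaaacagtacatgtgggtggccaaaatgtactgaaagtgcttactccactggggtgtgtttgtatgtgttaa
Chil3: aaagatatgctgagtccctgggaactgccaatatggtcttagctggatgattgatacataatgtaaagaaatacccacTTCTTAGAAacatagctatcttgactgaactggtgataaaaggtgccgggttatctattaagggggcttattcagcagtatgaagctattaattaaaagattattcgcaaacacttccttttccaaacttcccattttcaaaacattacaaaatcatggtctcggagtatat
Retnla alone of the 7 genes had TTCNNNNGAA, and Chil3 alone had TTCNNNGAA. GAGGAA stood 3 times in Mrc1 and once each in Stab1 and Retnla. These are matches of letters, and no binding was measured. Whether they have a part in the cells where the 2 genes were found was not tested.

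Between C1q macrophages of the 2 libraries, 0 of the 10 genes were at least 1.5-fold higher in the Ythdf2 KO library and 2 were at least 1.5-fold lower, Cd163 and Ccl24. Among all 9313 genes with at least 50 UMIs in these cells, 2.23% were that much higher and 5.64% that much lower. The median log2 ratio of the 10 genes was -0.02, against -0.08 over all genes. Folr2 came closest on the higher side: 997 WT and 1232 Ythdf2 KO UMIs gave 145 and 213 CPM, a ratio of 1.47 (1.35 to 1.60), and the intervals of the levels do not overlap. Mrc1, with 1901 and 1975 UMIs, had a ratio of 1.24 (1.16 to 1.32). Clec10a had a ratio of 1.32 (1.01 to 1.73) and Tgfb1 one of 1.10 (1.02 to 1.19). Stab1 (0.95, 0.852 to 1.06) and Msr1 (1.02, 0.965 to 1.08) had intervals that span 1. Chil3 had a ratio of 0.790 (0.689 to 0.904), at the background level given above. Cd163 had a ratio of 0.520 (0.321 to 0.823), which rests on 15 and 9 cells and was 0.340 without the richest cell of each library. The share of cells with a Cd163 UMI was 0.980% and 0.856%. Ccl24 had a ratio of 0.542 (0.395 to 0.737), and 0.985 where cell types were set by marker UMIs per 10000 UMIs. Retnla had a ratio of 0.722 when UMIs were summed and 1.45 when each cell was weighted equally.

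**Figure D2:**
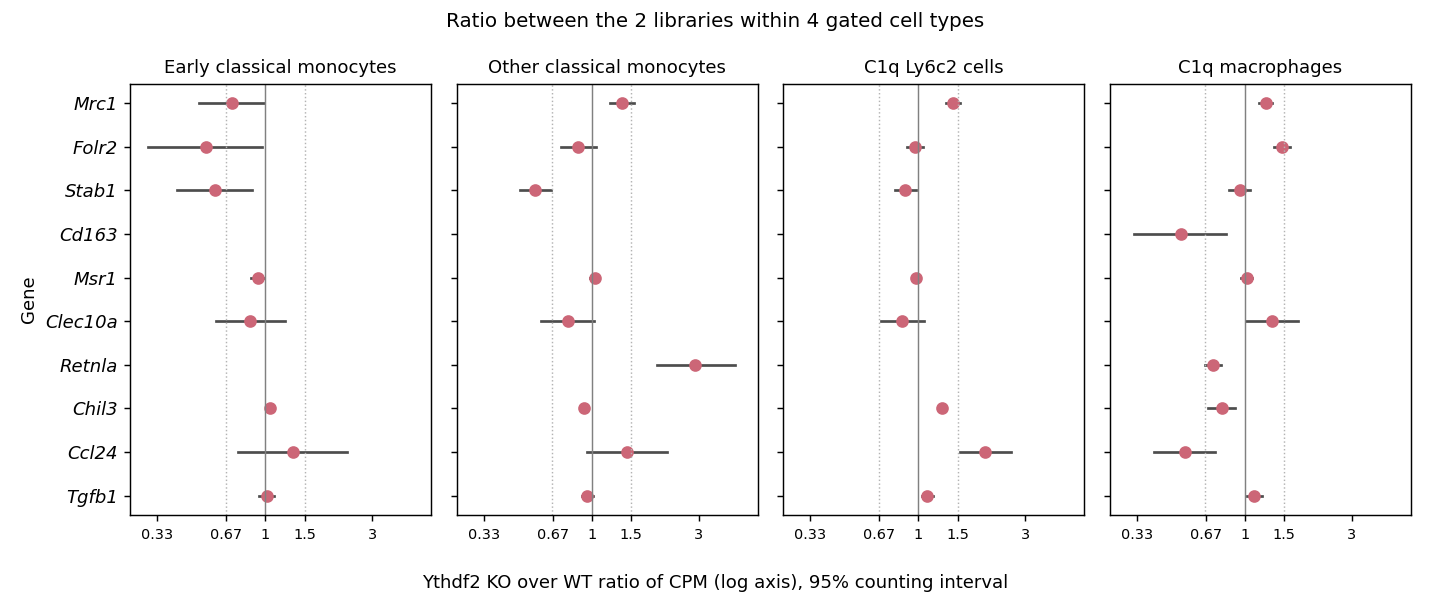
Ythdf2 KO over WT ratio of CPM on a log axis for the 10 genes (rows) in 4 cell types (panels), with 95% counting intervals as bars and dotted lines at 1.5-fold; genes with under 50 UMIs are left out, and so is Retnla in C1q Ly6c2 cells, whose ratio of 601 lies off the axis. Stab1 lies below 1 in both monocyte panels and near 1 in C1q macrophages, and Mrc1 lies above 1 in the 3 panels to the right.

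Among cells where Mrc1 UMIs are background, its ratio was 1.60 (1.16 to 2.20) in T cells, 0.995 (0.675 to 1.45) in NK cells and 1.06 (0.725 to 1.56) in neutrophils. For Folr2 the background ratios were 1.16 (0.819 to 1.66), 1.55 (1.01 to 2.37) and 2.05 (1.23 to 3.58) in the same order. The part of free RNA in the ratios of macrophages was not tested. Mrc1 and Folr2 were also found in a larger share of Ythdf2 KO macrophages, though the thinned intervals meet for Mrc1 and overlap for Folr2. With every cell thinned to 1000 UMIs, 244 of 1515 WT C1q macrophages (16.1%, exact binomial interval 14.3 to 18.1) and 213 of 1036 Ythdf2 KO ones (20.6%, 18.1 to 23.2) had an Mrc1 UMI. The unthinned shares were 36% and 47.3%. For Folr2 the thinned shares were 12.5% (10.9 to 14.2) and 16% (13.8 to 18.4), and the unthinned ones 31.9% and 42.8%. T cells thinned in the same way had an Mrc1 UMI in 0.422% and 1.38% and a Folr2 UMI in 0.739% and 0.963% of cells, at median depths of 5294 and 5464 UMIs before thinning. For thinning, 15 WT and 16 Ythdf2 KO macrophages were too shallow. Stab1 shares were 9.11% and 10.1%, with overlapping intervals, and Msr1 shares 32.3% and 31.6%.

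In C1q Ly6c2 cells, 2 of the 9 genes with at least 50 UMIs were at least 1.5-fold higher in the Ythdf2 KO library, Retnla and Ccl24, and 0 were that much lower, against 2.18% and 4.66% of all 10188 genes. Retnla had 1 WT UMI and 468 Ythdf2 KO UMIs, of which 434 were in 1 cell. Ccl24 had 96 and 149 UMIs (6.68 and 13.3 CPM), a ratio of 1.99 (1.53 to 2.60) that was 1.09 with types set by UMIs per 10000. Mrc1 stood at 96.2 and 138 CPM, a ratio of 1.43 (1.33 to 1.54). Chil3 stood at 534 and 685 CPM, a ratio of 1.28 (1.24 to 1.32), with 24.2% and 30.0% of cells at 1000 UMIs. Folr2 had a ratio of 0.967 (0.892 to 1.05), unlike its 1.47 in C1q macrophages. The difference between these 2 ratios was not tested. Msr1 had a ratio of 0.975 (0.937 to 1.02) and Tgfb1 one of 1.10 (1.04 to 1.16).

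Stab1 was lower in monocytes of the Ythdf2 KO library. In other classical monocytes it had 534 WT and 226 Ythdf2 KO UMIs (36.5 and 20.5 CPM), a ratio of 0.561 (0.478 to 0.657), and its thinned share of cells was 3.8% (3.14 to 4.55) and 1.69% (1.19 to 2.33). Early classical monocytes had 14.7 and 8.77 CPM (0.596, 0.402 to 0.871), and patrolling monocytes 15.5 and 8.96 CPM, where the interval of 0.339 to 1.02 spans 1. In T cells the same ratio was 0.696 (0.492 to 0.976), at 16.1 and 11.2 CPM, which is as high as in early and patrolling monocytes. Neutrophils stood at 19.3 and 14.2 CPM, a ratio of 0.732 (0.480 to 1.12). Their Ythdf2 KO interval overlaps that of other classical monocytes. In other classical monocytes Stab1 and Retnla were the genes past 1.5-fold, with 1 of 9 higher and 1 lower, against 1.77% and 3.70% of 9737 genes. Retnla had 38 and 83 UMIs there, 34 and 80 of them in 1 cell each. Mrc1 had a ratio of 1.37 (1.21 to 1.54). In early classical monocytes 0 of 8 genes were higher and 2 lower, Folr2 (40 and 19 UMIs) and Stab1, against 3.64% and 2.94% of 7917 genes. In patrolling monocytes 1 of 6 genes was higher (Folr2, 9 and 43 UMIs, an interval of 0.766 to 3.72) and 1 lower (Stab1), against 5.09% and 4.47% of 6910 genes. Folr2 stood at 7.10 and 3.87 CPM in early classical and at 6.05 and 9.64 CPM in patrolling monocytes. These levels were below T cells (11.3 and 13.2 CPM), the background of free RNA.

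In the dendritic cells, Clec10a had a ratio of 0.475 (0.248 to 0.845) in cDC2, with a UMI in 34 of 88 WT and 9 of 29 Ythdf2 KO cells, and of 1.15 (0.909 to 1.46) in pDC. In cDC2, 2 of 4 genes were at least 1.5-fold higher (Mrc1 and Chil3) and 1 lower (Clec10a), against 8.64% and 7.33% of 2129 genes. The 22 Ythdf2 KO UMIs of Mrc1 lay in 5 of the 29 cDC2, 12 of them in 1 cell. In pDC 0 of 4 were higher and 2 lower (Chil3 and Msr1), against 5.18% and 7.16% of 3378 genes. Msr1 stood there at 83.4 and 46.5 CPM, below T cells (104 and 78.1 CPM). Chil3 stood at 304 and 131 CPM, against 175 and 161 CPM in T cells. In cDC1 0 of 2 were higher and 1 lower (Chil3), against 7.06% and 5.55% of 1713 genes. In mature DC, 0 of 3 genes were past 1.5-fold, against 3.90% higher and 4.85% lower of 6208 genes.

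Within C1q macrophages Mrc1, Folr2, Stab1 and Msr1 were higher in cells with Arg1, the arginase gene that IL-4 and hypoxia both induce. Cells with at least 2 Arg1 UMIs (448 WT and 182 Ythdf2 KO cells) were set against cells with 0. Mrc1 stood at 459 CPM with and 168 CPM without Arg1 in WT cells, a ratio of 2.73 (2.47 to 3.02). In Ythdf2 KO cells it stood at 557 and 278 CPM, a ratio of 2.01 (1.82 to 2.21). The ratio of cells with to cells without Arg1 was 1.65 and 1.31 for Folr2, 1.48 and 1.57 for Stab1 and 1.66 and 1.97 for Msr1, so that Folr2 in Ythdf2 KO cells and Stab1 in WT cells were within 1.5-fold. The lectin and haemoglobin receptors had intervals that span 1, with Clec10a at 1.07 (0.688 to 1.65) and 1.46 (0.957 to 2.19) and Cd163 in WT cells at 1.62 (0.946 to 2.79). Retnla was at 0.790 and 2.36, on few cells. The ratio was 0.915 and 1.22 for Tgfb1, and both Chil3 intervals span 1. Past 1.5-fold were 4 of 10 genes in WT cells (Mrc1, Cd163, Folr2 and Msr1) and 4 of 8 in Ythdf2 KO cells (Mrc1, Stab1, Retnla and Msr1), all higher with Arg1. Of all genes, 4.44% of 7922 in WT and 6.88% of 7400 in Ythdf2 KO cells were at least 1.5-fold higher with Arg1, and 5.60% and 9.0% were that much lower. Cells with Arg1 were deeper, at a median of 4612 against 3646 UMIs in the WT library and 6390 against 4384 in the other. The part of depth in these ratios was not tested.

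Arg1 cells gave 34% of the UMIs of WT C1q macrophages and 21.8% of those of Ythdf2 KO ones. In cells without Arg1, the Ythdf2 KO to WT ratio of Mrc1 was 1.65 (1.5 to 1.82), and in cells with Arg1 it was 1.21 (1.10 to 1.33). For Folr2 the 2 ratios were 1.72 (1.53 to 1.94) and 1.37 (1.18 to 1.58). For Msr1 they were 1.03 (0.953 to 1.11) without and 1.22 (1.12 to 1.33) with Arg1, and for Stab1 1.00 (0.864 to 1.16) and 1.07 (0.885 to 1.29). With the make-up of Arg1, Nos2, Cxcl9 and Mmp12 cells set equal in both libraries, the Mrc1 ratio was 1.38 in C1q macrophages and 1.71 in C1q Ly6c2 cells.

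C1q macrophages with Cxcl9, a chemokine that interferon gamma induces, had less Mrc1 and Folr2. Mrc1 stood at 117 CPM with and 309 CPM without Cxcl9 in WT cells, a ratio of 0.380 (0.310 to 0.462), and at 193 and 384 CPM in the other, a ratio of 0.502 (0.428 to 0.587). Folr2 had ratios of 0.564 (0.444 to 0.708) and 0.735 (0.616 to 0.873), Stab1 of 0.786 and 0.680, and Msr1 of 0.891 and 0.805, so that Folr2 in Ythdf2 KO cells and Stab1 and Msr1 in both libraries were within 1.5-fold. Clec10a had ratios of 0.652 and 1.05, with intervals that span 1. Among the 10 genes in WT cells 6 were at least 1.5-fold lower (Mrc1, Cd163, Folr2, Retnla, Clec10a and Ccl24) and 0 higher. Among 9 in Ythdf2 KO cells 3 were lower (Mrc1, Retnla and Ccl24) and 1 higher, Chil3. Cd163, Retnla and Ccl24 were held by few macrophages, so their part in these counts rests on few cells. Of all genes, 11.2% of 8082 and 10.8% of 7428 were at least 1.5-fold lower in cells with Cxcl9, and 4.07% and 5.53% were that much higher. In C1q Ly6c2 cells the ratio with Cxcl9 was 0.709 and 1.08 for Mrc1, 0.689 and 0.774 for Folr2 and 1.01 and 1.13 for Stab1. In the 46 WT and 37 Ythdf2 KO C1q macrophages with Nos2, the nitric oxide synthase of inflammatory macrophages, the Mrc1 ratio was 0.531 and 0.600 while that of Msr1 was 1.36 and 1.38. In these few cells 25.2% and 26.2% of all genes were at least 1.5-fold lower and 10.7% and 12.4% higher. In cells with Mmp12, a macrophage elastase, Mrc1 was at 1.21 and 1.43 and Msr1 at 1.33 and 1.72 times the level without it, where 6.70% and 7.52% of all genes were at least 1.5-fold higher and 15.8% and 12.7% lower. In the cells with Cxcl9 the Ythdf2 KO to WT ratio of Mrc1 was 1.64 (1.29 to 2.11) and that of Folr2 1.86 (1.41 to 2.47).

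**Figure D3:**
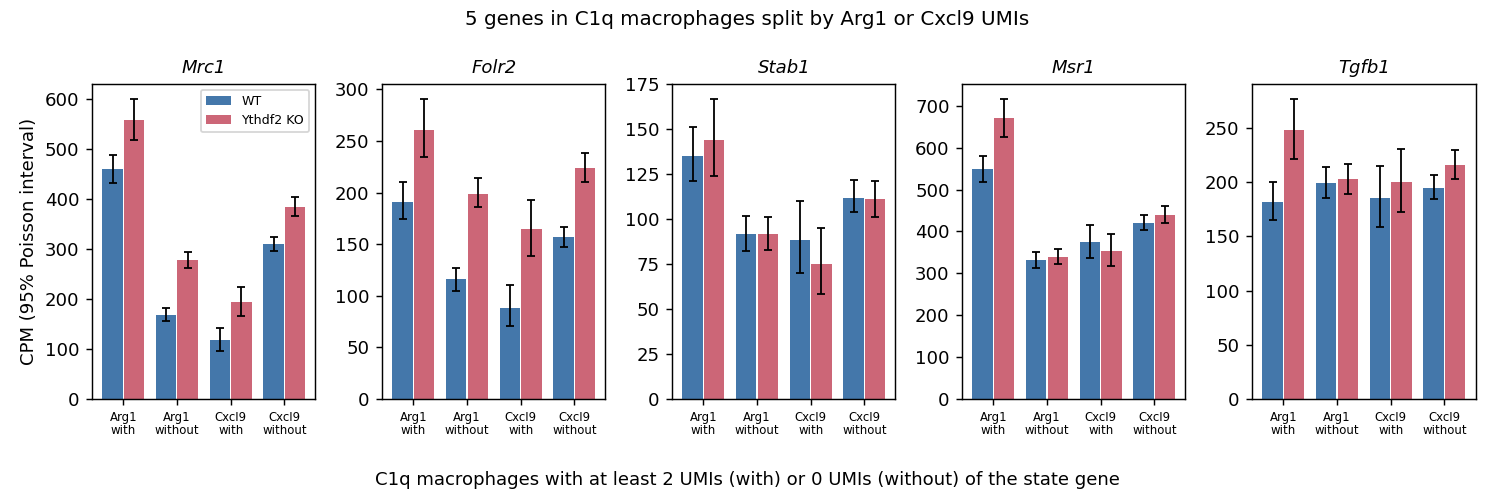
CPM of 5 genes (panels) in C1q macrophages with at least 2 UMIs or with 0 UMIs of Arg1 or Cxcl9, per library; bars start at 0 and error bars are 95% Poisson intervals. Mrc1 is highest in cells with Arg1 (459 and 557 CPM) and lowest in cells with Cxcl9 (117 and 193 CPM), while Tgfb1 stays between 182 and 248 CPM.

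Folr2 and Stab1 UMIs were seen in a larger share of C1q macrophages with an Mrc1 UMI than of those without. At 1000 UMIs per cell, a Folr2 UMI was seen in 19.3% (14.5 to 24.8) of WT C1q macrophages with Mrc1 and in 11.2% (9.49 to 13) of those without. In the Ythdf2 KO library the shares were 26.3% (20.5 to 32.7) and 13.4% (11.1 to 15.9). A Stab1 UMI was seen in 16.4% against 7.71% of WT cells and in 15.5% against 8.75% of Ythdf2 KO cells, where the intervals (10.9 to 21.1 and 6.91 to 10.9) meet. Between Folr2 and Stab1 the intervals overlapped: a Stab1 UMI was seen in 13.2% (8.75 to 18.9) of WT cells with Folr2 and 8.52% (7.07 to 10.2) of those without, and in 15.1% (9.99 to 21.4) and 9.20% (7.36 to 11.3) in the other library. In WT C1q Ly6c2 cells Stab1 was seen in 2.61% of cells with Mrc1 and 5.79% of those without, again with overlapping intervals. Msr1 differed less, at 35.2% against 31.8% and 35.7% against 30.5%, with overlapping intervals, as did Tgfb1 at 16.8% against 16.3% and 16.9% against 16.4%. Chil3 was seen in 3.69% of WT cells with Mrc1 and 6.45% of those without, and in 4.23% and 4.50% in the other library.

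Barcodes with at least 10 Retnla UMIs, a limit set after the values were seen, were 8 in the WT and 13 in the Ythdf2 KO library. They held 97.8% and 93.8% of all Retnla UMIs and 1704 UMIs in each library. Of them, 4 and 7 were C1q macrophages, and 6 and 11 met the C1q limit. Their median depth was 19357 and 12996 UMIs, against 3934 and 4868 in C1q macrophages, and the part of depth or of doublets in the levels below was not tested. Retnla UMIs per barcode were 10 to 854 with a median of 81 in the WT library and 11 to 434 with a median of 90 in the other. Mrc1 was present in 7 of 8 and 13 of 13 of them, at a summed 556 and 618 CPM. Stab1 was present in 0 of 8 and 3 of 13, at 0 UMIs and 30.9 CPM, where C1q macrophages had 109 and 104 CPM. Folr2 was present in 6 of 8 and 6 of 13. Ear2, an eosinophil-associated ribonuclease of the IL-4 response list, had 216 and 736 CPM in them, against 4.36 and 17.3 CPM in C1q macrophages (38 UMIs in 7 and 119 UMIs in 8 barcodes, against 30 and 100 UMIs). Lpl, lipoprotein lipase, had 454 and 241 CPM against 43.1 and 57.2 CPM, and Fcrls, an Fc receptor-like scavenger gene, 221 and 117 CPM against 27.5 and 28.2 CPM. Fcrls and Lpl are among the 3 genes most like Retnla over the cell types. That likeness rests on the Retnla UMIs of these same barcodes, so it is not separate support. Pf4 was lower in the Retnla-rich barcodes, at 335 and 365 CPM against 2245 and 4592 CPM. Mgl2 had 102 and 359 CPM against 8.58 and 13.7 CPM. Lyve1, a marker of a resident macrophage subset, was present in 0 of 8 and 2 of 13, and Chil3 in 3 of 8 and 2 of 13. The Retnla-rich barcodes of both libraries thus had Mrc1 with little Stab1. Low levels were not particular to Stab1 and Pf4. C1qa stood at 1124 and 1929 CPM against 3476 and 3788 CPM in C1q macrophages, and Msr1 at 193 and 216 CPM against 413 and 420 CPM. H2-Ab1, an MHC class II gene, was higher, at 3354 and 6072 CPM against 2871 and 2609 CPM.

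**Figure D4:**
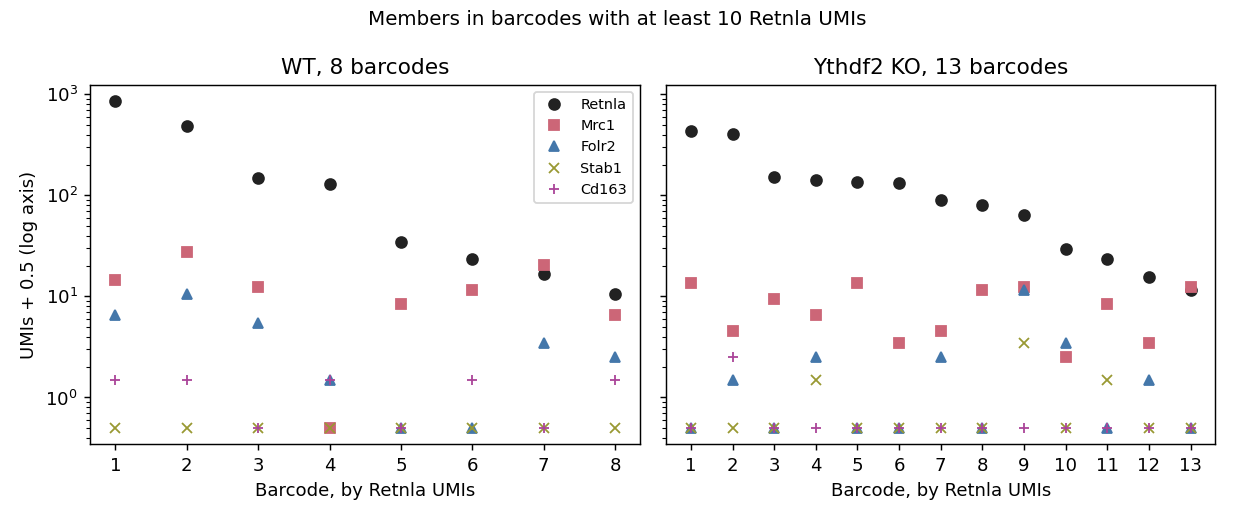
UMIs plus 0.5 on a log axis of Retnla, Mrc1, Folr2, Stab1 and Cd163 in each barcode with at least 10 Retnla UMIs, ordered by Retnla, for the WT (8 barcodes) and Ythdf2 KO (13 barcodes) library; a point at 0.5 stands for 0 UMIs. Mrc1 is above 0 in 20 of the 21 barcodes, and Stab1 in 3.

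Barcodes with at least 5 Cd163 UMIs, also a limit set after the values were seen, were 9 and 3, and 0 of them were among the Retnla-rich ones. In these, Mrc1 was present in 9 of 9 and 3 of 3 at 2045 and 1760 CPM, and Stab1 in 7 of 9 and 2 of 3 at 316 and 417 CPM. Folr2 stood at 414 and 232 CPM. Pf4 stood at 10004 and 12228 CPM, and Ear2 and Lpl had 0 UMIs in all 12. Fcrls stood at 60.9 and 162 CPM, from 5 and 7 UMIs, against 27.5 and 28.2 CPM in C1q macrophages. Cbr2, a carbonyl reductase of resident macrophages, stood at 645 and 185 CPM against 22.4 and 39.3 CPM in C1q macrophages, and Lyve1 was present in 1 of 9 and 1 of 3. Of the barcodes with at least 5 Ccl24 UMIs (28 and 26), 5 and 3 were C1q macrophages and 14 and 10 had no single type. Of these Ccl24-rich barcodes, 2 and 1 were Retnla-rich and 2 and 1 were Cd163-rich.

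Across the 26 points of 13 cell types in 2 libraries, the levels of the 10 genes were compared on the log2(CPM + 10) scale. The points share libraries and depth, so these correlations are descriptions. Pearson's r was 0.92 between Folr2 and Stab1, 0.85 between Mrc1 and Stab1, 0.84 between Mrc1 and Retnla and 0.81 between Mrc1 and Folr2. It was 0.80 between Stab1 and Msr1, 0.77 between Cd163 and Clec10a and 0.72 between Folr2 and Msr1. The pairs with Retnla or Cd163 rest on few cells. It was 0.06 between Mrc1 and Chil3 and -0.02 between Clec10a and Msr1. Among the other 9403 genes with at least 500 UMIs, the pattern most like Mrc1 was that of Rab3il1 (r = 0.948), followed by Mfsd11 (0.935) and Nxpe5 (0.892). Folr2 was most like Ms4a14 (0.972), and Stab1 most like Mertk (0.960) and Siglec1 (0.94). Msr1 was most like Scamp1 (0.975), Chil3 like F10 (0.909), Clec10a like Lifr (0.930) and Tgfb1 like Slc25a5 (0.843). Cd163 was nearest to Pltp (0.887), Retnla to Fcrls (0.877) and Ccl24 to Cbr2 (0.811), each on few UMIs or few cells.

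Of the members' other relatives, Cd163l1 was found in T cells at 43.3 and 26.2 CPM. Over all kept barcodes Stab2 had 77 WT and 19 Ythdf2 KO UMIs, Mrc2 had 11 and 25, Folr1 had 6 and 5 and Marco had 2 and 13. Mgl2 stood at 8.58 and 13.7 CPM in C1q macrophages (59 and 79 UMIs), a ratio of 1.59 (1.12 to 2.27). The 13 Retnla-rich Ythdf2 KO barcodes, 7 of them C1q macrophages, held 58 Mgl2 UMIs, so this interval may be too narrow. In C1q Ly6c2 cells Mgl2 went the other way, at 6.61 and 3.76 CPM. Of the 24 relatives listed, 3 had at least 50 UMIs in C1q macrophages, with 1 higher (Mgl2) and 1 lower (Tgfb3) by 1.5-fold. Of all genes, 2.23% were that much higher and 5.64% lower. Ccl7, a chemokine like Ccl24, had a ratio of 1.47 (1.43 to 1.51). In C1q Ly6c2 cells 0 of 5 relatives were higher and 3 lower, Mgl2 and Tgfb3 among them, against 2.18% and 4.66% of all genes. Mgl2 and Tgfb3 are counted again in the IL-4 and TGF-beta lists below.

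The genes around the 10 were read from lists of other genes, chosen like the 10 with earlier results of these data known. Of 23 other scavenger and uptake receptors, 11 had at least 50 UMIs in C1q macrophages. None was at least 1.5-fold higher in the Ythdf2 KO library and 1 was lower, Axl, a receptor for dying cells, at 59.5 and 37.0 CPM (0.622, 0.525 to 0.736), where 2.23% of all genes were higher and 5.64% lower. Scarb2, Siglec1 and Lrp1 followed with ratios of 0.708, 0.727 and 0.758. The median log2 ratio of the list was -0.32, against -0.08 over all genes.

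The IL-4 and IL-13 response list was divided. Of 34 genes, 28 had at least 50 UMIs, with 5 higher and 5 lower by at least 1.5-fold and a median of -0.23, against 2.23% and 5.64% of all genes and a median of -0.08. Ear2 stood at 4.36 and 17.3 CPM (3.96, 2.61 to 6.18), with 19 of its 30 WT UMIs in 4 Retnla-rich macrophages and 49 of its 100 Ythdf2 KO UMIs in 4. The other macrophages had 1.61 and 8.93 CPM, from 11 and 51 UMIs. Batf3, a transcription factor, stood at 18.0 and 34.2 CPM (1.90, 1.51 to 2.40). Flt1, a VEGF receptor, stood at 23.1 and 10.2 CPM (0.441, 0.321 to 0.598), and Tgm2, a transglutaminase, at 290 and 150 CPM (0.516, 0.476 to 0.560). The other 3 higher genes were Pparg, Mgl2 and Cd200r1, and the other 3 lower ones Arg1, Cish and Socs1.

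Of 26 other genes of the TGF-beta pathway, 18 had at least 50 UMIs, with 0 higher and 5 lower and a median of -0.38, against the same 2.23%, 5.64% and -0.08 over all genes. Tgfb3, another ligand, stood at 14.3 and 4.15 CPM (0.291, 0.178 to 0.459). Furin, which cleaves the precursor, stood at 230 and 121 CPM (0.525, 0.479 to 0.574), and Thbs1, which can release active ligand, at 997 and 591 CPM (0.593, 0.569 to 0.618). Smad3, a signal transducer, had a ratio of 0.620 (0.428 to 0.889), and the receptor Tgfbr1 was the other lower gene. Tgfb1 itself had a ratio of 1.10. In C1q Ly6c2 cells the list had 0 higher and 4 lower of 19, where 2.18% of all genes were higher and 4.66% lower.

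Of 22 genes of resident macrophages, 16 had at least 50 UMIs in C1q macrophages, with 6 higher and 0 lower and a median of 0.45, beside 2.23% and 5.64% of all genes and their median of -0.08. Pf4 stood at 2245 and 4592 CPM (2.05, 2.01 to 2.09), Gas6 at 8.15 and 15.2 CPM (1.87, 1.32 to 2.66), Blvrb at 190 and 336 CPM (1.77, 1.65 to 1.90) and Cbr2 at 22.4 and 39.3 CPM (1.75, 1.42 to 2.16). Fcna and Wwp1 were the other 2. Lyve1 had 21 and 26 UMIs, too few for a ratio. In C1q Ly6c2 cells the same list had a median of 0.03, with 2 of 16 higher and 1 lower, beside a median of -0.05 and 2.18% and 4.66% of all genes.

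**Figure D5:**
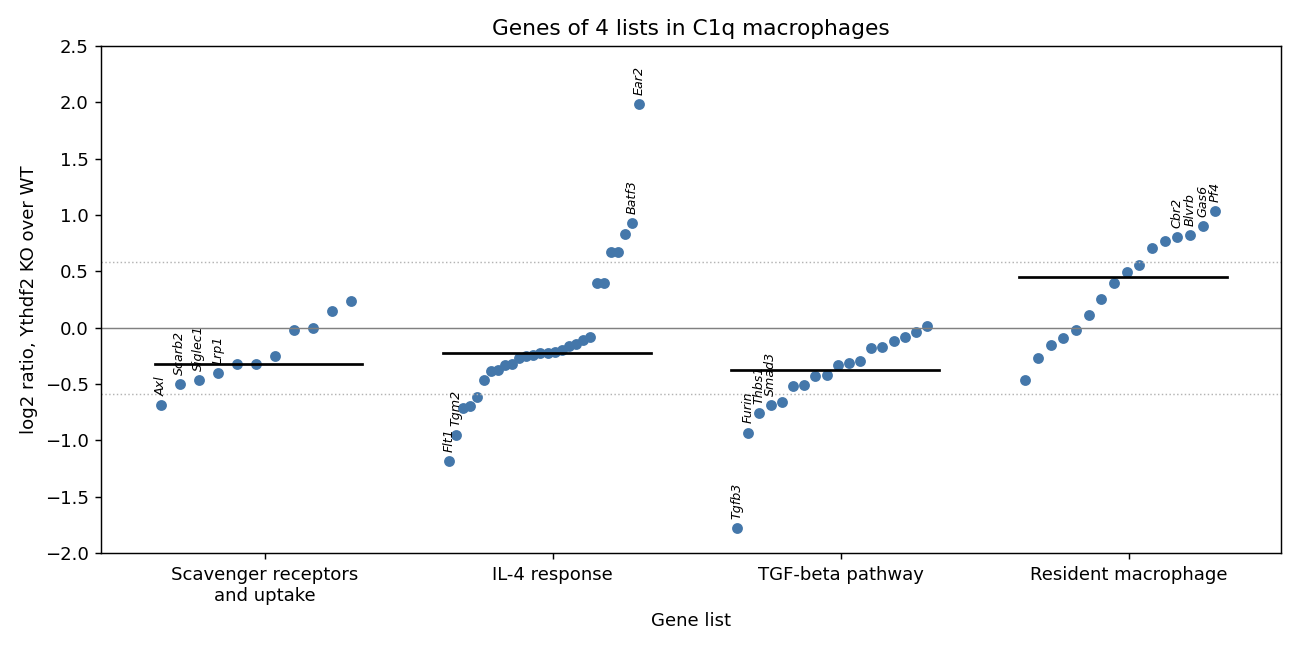
log2 ratio of Ythdf2 KO over WT in C1q macrophages for the genes with at least 50 UMIs of 4 lists of other genes, sorted within each list; black bars are medians, dotted lines mark 1.5-fold, and the 4 genes farthest from 0 are named in each list. The medians are -0.32, -0.23, -0.38 and 0.45.

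Genes of other cells also differed between the C1q macrophages of the 2 libraries. All 4 NK cell markers were detected in both, at a summed 116 CPM in the WT and 57.6 CPM in the Ythdf2 KO library, and all 3 patrolling monocyte markers at 10.2 and 44.1 CPM. The 5 T cell markers summed to 25.6 and 16.6 CPM and the 6 neutrophil markers to 137 and 133 CPM, with none at 0. In C1q Ly6c2 cells the patrolling markers stood at 18.6 and 76.4 CPM and the 2 haemoglobin genes at 0.627 and 359 CPM. The part of these genes' cells in the ratios of the 10 genes was not tested.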

How the data were processed

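The authors deposited raw UMI counts per gene and barcode for 1 WT and 1 Ythdf2 KO library of sorted CD45+ tumour leukocytes made with a 10x Genomics 5′ kit, per the labels' protocols. Per the submitters' processing notes, mm10, Seurat 4.0.4 and Cell Ranger 5.0.1 were used, while the file headers give Cell Ranger 6.1.1, and which of them made the counts is not known. How multi-mapping reads and strand were treated is not given in the sources used here.

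The 10 genes, the gene lists and the markers were chosen with earlier results of these data known. Barcodes had at least 500 UMIs, 200 genes and at most 10% mitochondrial UMIs. Counts were summed per library and type and divided by the type's total UMIs (CPM), with exact Poisson intervals for levels, exact conditional binomial intervals for ratios and Clopper-Pearson intervals for shares (95%). Ratios needed 50 UMIs over both libraries, and 1.5-fold was the limit for calling a gene higher or lower. Coordinates are GENCODE M21 (GRCm38, the build of mm10). Named were all 10 genes, their direct relatives, the 4 genes of each list farthest from a ratio of 1 and the 3 genes most like each member; genes outside these were named after their values were seen. The ratio code was tested on simulated data. Doublets were not removed; Scrublet scores served as an alternative, in scanpy 1.11.5. Other tools were Python 3.11.15, numpy 2.4.6, scipy 1.17.1 and pandas 2.3.3.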

Additional observations from a re-analysis of the deposited data

Results flagged for a closer look

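Ccl24 and Chil3 were past 1.5-fold in opposite directions in different cell types; the differences between types were not tested. Ccl24 had a Ythdf2 KO to WT ratio of 0.542 in C1q macrophages and 1.99 in C1q Ly6c2 cells, and 1 cell held 43 of the 136 WT macrophage UMIs and 1 cell 55 of the 149 Ythdf2 KO UMIs of C1q Ly6c2 cells. Chil3 had a ratio of 0.151 in cDC1, 7.74 in cDC2 and 0.433 in pDC. In cDC1 1 WT cell held 62 of 73 UMIs, and in cDC2 1 Ythdf2 KO cell held 61 of 79.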

How the results depend on the processing

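No paired analysis was possible because each genotype has 1 library. Of 36 ratios between libraries (4 types), 19 kept their direction under the alternatives tried for them, which leave out thinning to 2000 UMIs, where Clec10a in C1q macrophages went to just under 1 (a share ratio of 1.79 at 1000 UMIs and 0.993 at 2000 UMIs). Among the 19 were Mrc1 in C1q macrophages (1.15 to 1.38) and C1q Ly6c2 cells (1.34 to 1.71), Folr2 in C1q macrophages (1.28 to 1.57) and Stab1 in other classical monocytes (0.445 to 0.605). Mrc1 in early classical monocytes did not (0.604 to 1.46). Folr2 in early classical monocytes, 0.546, was 1.00 with gates per 10000 UMIs. The count of the 10 genes past 1.5-fold in C1q macrophages was 2. It was 1 with second-lineage barcodes kept and with gates per 10000 UMIs, and 0 at 2-fold. By the share of cells at 1000 UMIs it was also 1, but that gene was Clec10a (1.79). Cd163 and Ccl24 had no share ratio, which needed at least 10 cells with a UMI in each library. In C1q Ly6c2 cells the count was also 2. It was 1 with second-lineage barcodes kept, with the macrophage limit doubled, without the richest cell of each library and at 2-fold. It was 0 with gates per 10000 UMIs. By the share of cells it was also 0, but Retnla and Ccl24 had too few cells with a UMI for a share ratio there. In other classical monocytes, again 2, it was 1 at 2-fold. The causes were not tested. Leaving out the richest cell, leaving out shared barcodes and the ratio of shares of cells were added after the data were seen. Without the shared barcodes, Mrc1 and Folr2 in C1q macrophages were 1.23 and 1.46 and Stab1 in other classical monocytes 0.561.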
